A study of Mus musculus with 6 samples.

Results

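The complement system was followed through 9 genes in mouse retina: the C1q chains C1qa, C1qb and C1qc, the protease C1s1, the central components C3 and C4b, and the regulators Serping1, Cfi and Cd59a. They were taken by symbol from a table of 49997 genes, in which all 9 were found, and all 9 passed the filter on low values with which 20277 genes were tested. Polyadenylated RNA had been sequenced from 6 retinas, with a single retina per library, all from mice labelled male. The 3 libraries labelled Samd7 KO came from postnatal day 31 and carried the genotype label Samd7 knockout (-10A), and the 3 wild-type libraries came from postnatal day 36 with the genotype label c57Bl6/j wt. Samd7 encodes a Polycomb-associated protein of photoreceptors. The labels do not give the strain of the KO mice, which part of Samd7 was altered, or whether each retina came from its own mouse, so that p-values reflect only how these retinas varied. Age and genotype cannot be told apart in this design.

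Complement is a cascade of plasma and tissue proteins that tags surfaces for removal. In the classical pathway C1q, a bundle of A, B and C chains, binds a target, and its proteases C1r and C1s then become active. C1s cleaves C4 and C2 into an enzyme that cleaves C3. Factor I degrades the active fragments, the C1 inhibitor encoded by Serping1 blocks the proteases, and CD59 stops the pore that forms at the end of the cascade. In the retina C1q is known to come mainly from microglia, while glia, vessels and pigment epithelium are known to make other components.

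The deposited values are normalized reads, that is gene read counts divided by a size factor per library, from libraries of 44231110 to 62813550 reads. Samd7 itself had 57837, 45755 and 44932 normalized reads under the KO label and 6349, 8141 and 8122 in wild type, so the targeted gene was higher under the KO label (log2 fold change 2.72, limma adjusted p = 1.54e-08). Of the 20277 tested genes, 2432 were called, 56.6% of them higher under the KO label. With total-read scaling 2813 genes were called, 71.2% of them higher, and with upper-quartile scaling 2553, 48.5% of them higher. Reads summed over a gene cannot reveal an altered transcript, and each direction below is that of the libraries labelled Samd7 KO. Rod markers, which define most of the tissue, were abundant in all libraries, and 5 of 5 were lower under the KO label.

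Of the 9 complement genes, 7 were higher in the libraries labelled Samd7 KO, 1 was lower and 1 did not pass the test. Across all tested genes 6.79% were called higher and 5.21% lower (limma, Benjamini-Hochberg adjusted p under 0.05 over all tested genes). The median log2 fold change was 0.58 over the 9 genes and 0.00178 over all 20277. The 7 genes called higher also had no overlap between groups, an order that 15.9% of tested genes showed in that direction, and the gene called lower had none in the other direction, as did 15.2%. The authors' deposited table called 7 of the 9 genes against no change, all but C1s1 and C3, and 14.3% of all genes with an adjusted p. C4b stood far above the rest, Serping1, Cfi and C1s1 followed, and the C1q chains rose least. The number called higher fell to 4 without KO 3 and to 4 without wild type 3, since C1qa, C1s1 and Cfi then missed the threshold.

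**Figure D1:**
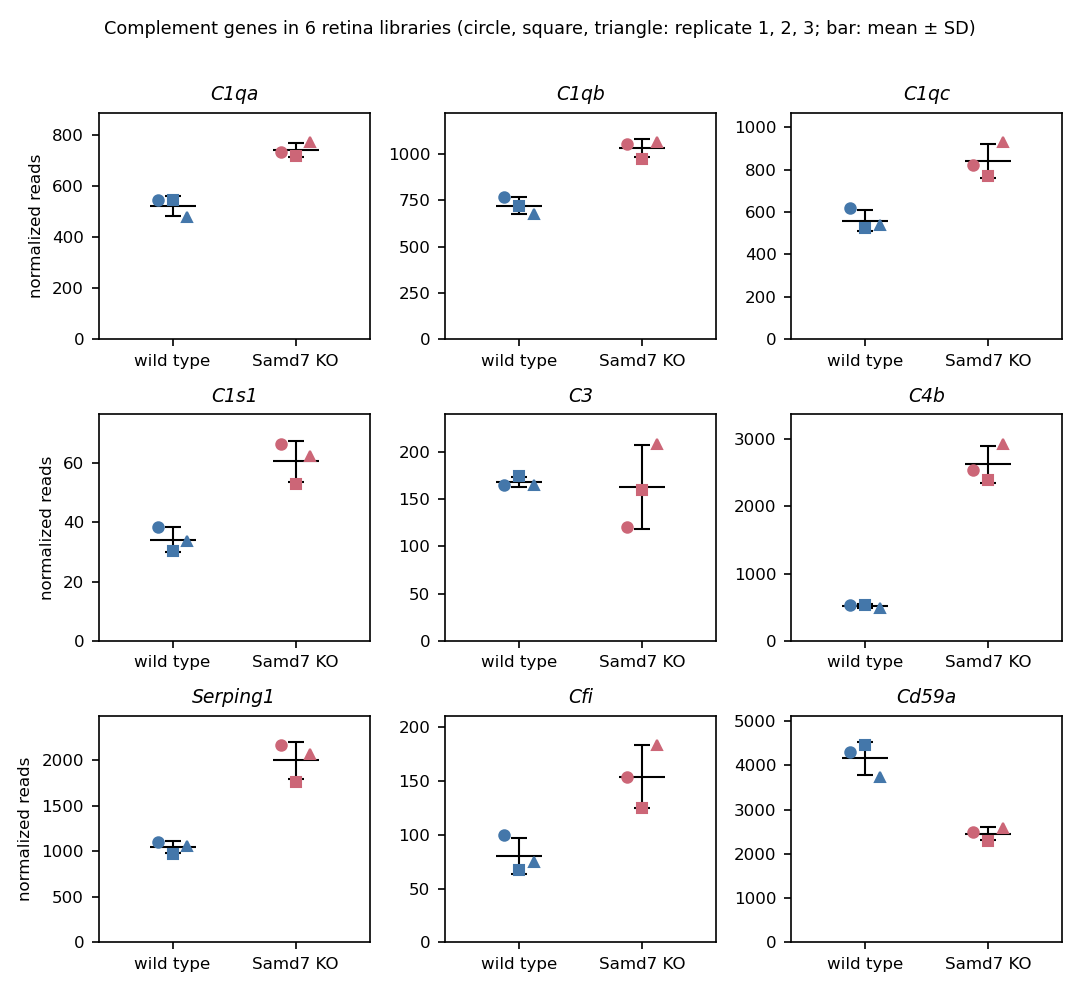
Normalized reads (vertical axes, from 0) of the 9 complement genes in each of the 3 wild-type and 3 Samd7 KO libraries, with the mean and SD of each group. All KO points lie above all wild-type points for C1qa, C1qb, C1qc, C1s1, C4b, Serping1 and Cfi, below them for Cd59a, and on both sides of them for C3.

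The C1q chains rose together. C1qa, the A chain, had 734, 714 and 769.9 normalized reads in KO libraries 1, 2 and 3 and 546, 544 and 477 in wild type 1, 2 and 3. C1qb, the B chain, had 1055, 975 and 1063 against 767, 719.7 and 677. C1qc, the C chain, had 822, 770.4 and 929 against 617, 523 and 539. Every KO library lay above every wild-type library for each chain, and the lowest KO value was always that of KO 2. The rises were 1.41-fold for C1qa (log2 fold change 0.50, SE 0.11, limma adjusted p = 0.00877), 1.43-fold for C1qb (0.52, SE 0.10, limma adjusted p = 0.00466) and 1.50-fold for C1qc (0.58, SE 0.11, limma adjusted p = 0.00541). The C1qa call ended without KO 3 (adjusted p = 0.0513) and without wild type 3 (adjusted p = 0.0652), within a range over 16 alternatives of 3.68e-04 to 0.0652.

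These genes lie side by side on chromosome 4 (GRCm38), in the order C1qb, C1qc and C1qa within 18.7 kb from 136880126 to 136898844, and share no stretch of 50 bases in their transcripts, so that reads of that length are not exchanged between them. Per kb of exonic length (1040, 1088 and 1931 bases for C1qa, C1qb and C1qc), C1qb held 44.5% to 46.2% of the summed C1q level, C1qa 33.6% to 36.0% and C1qc 18.6% to 21.9% over the 6 libraries. The mean share of C1qb was 45.3% ± 0.859 in the KO libraries and 45.6% ± 0.149 in the others (SD, n = 3 each). No share separated the groups (exact permutation test, two-sided, p = 0.5 for C1qa, 0.7 for C1qb and 0.6 for C1qc, with 0.1 the smallest possible), and 3 libraries a group cannot show that the shares were equal.

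The 250 bases before the start sites of C1qb and C1qc are shown because both genes rose to a similar extent, together with those of Cd59a, which fell, and C3, which did not pass. RefSeq promoters (GRCm38.p6) were matched for 5 of the 9 genes. For C1qc and Cd59a the start site used lies inside the annotated gene, whose outer ends are at 136892936 and 104095753. Their stretches therefore overlap the gene in part. Capitals mark matches, on either strand, to any of 4 motifs: TTCNNNGAA (STAT-bound GAS type), GAAA followed after any 2 bases by GAAA (interferon-response type), GAGGAA (PU.1 type) and TTGCNNAA (C/EBP type).
C1qb, chr4:136886201-136886450, minus strand: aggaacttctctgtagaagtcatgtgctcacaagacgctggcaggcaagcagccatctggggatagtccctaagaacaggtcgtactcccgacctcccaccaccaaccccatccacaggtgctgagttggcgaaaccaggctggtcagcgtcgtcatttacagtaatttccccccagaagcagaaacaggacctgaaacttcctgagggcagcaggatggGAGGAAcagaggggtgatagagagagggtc
C1qc, chr4:136892915-136893164, minus strand: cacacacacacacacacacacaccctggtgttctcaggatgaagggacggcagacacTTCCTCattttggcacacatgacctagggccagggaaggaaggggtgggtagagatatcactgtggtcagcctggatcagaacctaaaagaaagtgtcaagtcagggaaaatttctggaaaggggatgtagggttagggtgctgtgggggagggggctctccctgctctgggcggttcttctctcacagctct
Cd59a, chr2:104095551-104095800, plus strand: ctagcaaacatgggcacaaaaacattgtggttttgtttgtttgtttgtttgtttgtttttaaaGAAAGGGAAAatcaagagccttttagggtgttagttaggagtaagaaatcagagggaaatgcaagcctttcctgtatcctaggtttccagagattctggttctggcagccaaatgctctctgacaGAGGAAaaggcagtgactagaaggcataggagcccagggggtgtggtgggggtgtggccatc
C3, chr17:57228137-57228386, minus strand: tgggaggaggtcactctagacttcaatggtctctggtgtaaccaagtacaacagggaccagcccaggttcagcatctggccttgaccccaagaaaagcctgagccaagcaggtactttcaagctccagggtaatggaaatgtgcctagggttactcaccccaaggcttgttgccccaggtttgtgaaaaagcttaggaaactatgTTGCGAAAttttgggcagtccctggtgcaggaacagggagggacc
C1qb and C1qc each held GAGGAA once, the former 30 bases and the latter 193 bases before the start site, and 23.3% of 32851 promoters of the same length held it. Cd59a held GAGGAA and the interferon-response type once each, the latter present in 2.98% of promoters. C3 held TTGCNNAA once, as did 9.56% of promoters. None of the 4 held TTCNNNGAA, which 7.02% of promoters hold. C1s1, which rose and was also matched but is not shown, held TTGCNNAA once, 242 bases before 1 of its start sites. Before its other start site it held none of the 4 motifs. These are letter matches only.

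C1q is a microglial product, so its level was set beside microglia markers. Of 18 markers, all tested, 10 were higher under the KO label and 8 did not pass, with a median log2 fold change of 0.70. The largest, 1.69 for Ptprc, came from a gene with 6.84, 4.33 and 12.2 normalized reads in wild type. It passed the filter only through the KO libraries. Their summed level was 6883 to 7491 normalized reads in the KO libraries and 4622 to 5060 in wild type, and no marker was at 0. The lysosomal protease Ctss (1.85-fold), the membrane protein Laptm5 (1.82-fold), the fractalkine receptor Cx3cr1 (2.24-fold) and the transcription factor Sall1 (2.24-fold) had the smallest adjusted p, from 1.86e-04 to 0.00664 by limma. Among markers of border macrophages and monocytes, which can also make C1q, 2 of 5 tested rose and 3 did not pass. They were F13a1 (4.65-fold, from 14.9 ± 8.75 to 69.3 ± 23.7) and Mrc1 (2.85-fold, at 36.1, 46.7 and 27.9 against 12.8, 11.9 and 14.1). F13a1 was under the filter value in wild type 1 (8.56) and passed the filter through the KO libraries. Pf4 (1.61-fold), Lyve1 (1.03-fold) and Cd163 (0.93-fold, at 8.24 ± 4.67 against 8.88 ± 3.62) did not pass. The monocyte genes Ccr2, Ly6c2 and Cd209a were at or near 0. In bulk retina, more cells of a type and more RNA per cell cannot be told apart.

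Within each library, summed C1q reads were 0.379, 0.343 and 0.369 of the summed microglia markers in KO 1, 2 and 3, and 0.381, 0.374 and 0.366 in wild type 1, 2 and 3. The groups overlapped, with a log2 difference of -0.04 (log2 means -1.46 ± 0.0749 and -1.42 ± 0.0291, SD, n = 3 each, exact permutation test, two-sided, p = 0.6). With 5 markers (P2ry12, Tmem119, Cx3cr1, Siglech and Gpr34) in place of 18 the ratios did not overlap, at 2.26, 2.44 and 2.44 in KO and 2.48, 2.52 and 2.63 in wild type (log2 difference -0.10, exact permutation test, two-sided, p = 0.1, the smallest possible). With the mean of log values in place of the sums, which gives each marker the same weight, the log2 difference was -0.21 and the groups did not overlap (exact permutation p = 0.1, the smallest possible). That mean includes Ptprc, which passed the filter only through the KO libraries, and the part of Ptprc in the difference was not tested.

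**Figure D2:**
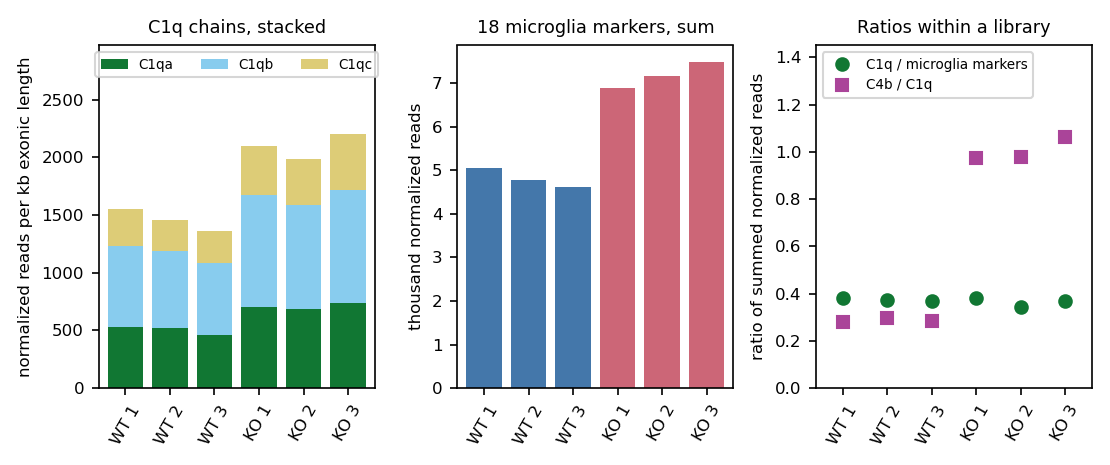
For each of the 6 libraries: C1qa, C1qb and C1qc in normalized reads per kb (left, stacked bars), the sum of 18 microglia markers (middle, bars), and the ratios of C1q to those markers and of C4b to C1q (right, points). The ratio of C1q to markers lies between 0.343 and 0.381 in all libraries, while that of C4b to C1q is 0.974 to 1.06 in KO and 0.278 to 0.297 in wild type.

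C1s1 (chromosome 6, 124530344 to 124542392) encodes C1s, a protease that becomes active after C1q binds a target. It was scarce, at 66.6, 52.9 and 62.6 normalized reads in the KO libraries and 38.5, 30.3 and 33.9 in wild type, from 175 and 109 reads in all. Every KO library lay above every wild-type library, and the rise was 1.77-fold (log2 fold change 0.81, SE 0.23, limma adjusted p = 0.0388). This call was the least firm: it ended in 8 of 16 alternatives, with adjusted p from 0.00949 to 0.125, among them DESeq2 on recovered reads (adjusted p = 0.0553). The authors' deposited table gave C1s1 an adjusted p of 0.0738. Its copy C1s2 had 11 reads in the KO libraries and 6 in wild type, and 21.8% of the 50-base stretches of C1s1 transcripts also occur in C1s2. An antisense gene, Gm16567, covers 18.4% of the exonic bases of C1s1, and the strand setting of the counting is not known here. C1ra, the partner protease C1r (chromosome 6, as is C1s1), rose 1.86-fold, with 103, 95.4 and 106 against 59.0, 50.9 and 53.7 normalized reads (limma adjusted p = 0.00845).

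C4b, the component that C1s cleaves, had 2544, 2400.3 and 2931 normalized reads in the KO libraries and 537, 531 and 483 in wild type (chromosome 17, 34728139 to 34743902). Every KO library lay far above every wild-type library, the group means were 2625 ± 275 and 517 ± 29.9 (SD, n = 3 each), and the rise was 5.08-fold. Its log2 fold change of 2.34 (SE 0.10, 95% interval 2.11 to 2.56, limma adjusted p = 2.33e-08) was higher than that of 99.4% of tested genes. Over 16 alternatives the log2 fold change stayed between 2.26 and 2.46. In the authors' deposited table C4b was the only one of the 9 genes called against a log2 fold change of 1 (adjusted p = 5.38e-30), a test that 0.674% of genes passed.

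C4b was also set against C1q within each library. The ratio of C4b to summed C1q reads was 0.974, 0.976 and 1.06 in the KO libraries and 0.278, 0.297 and 0.285 in wild type, 3.50-fold higher with no overlap (log2 difference 1.81, exact permutation test, two-sided, p = 0.1, the smallest possible with 3 against 3). Leaving out any library gave a log2 difference of 1.77 to 1.83.

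C4a, a neighbouring gene on chromosome 17, is a close copy of C4b, and the longest transcripts of both (GENCODE M21) match at 96.1% of 5367 aligned bases. Of the 50-base stretches of C4b transcripts, 34.6% also occur in C4a, so that some reads could not be placed by sequence alone. C4a had 55.3, 29.0 and 38.5 normalized reads in the KO libraries and 41.1, 28.1 and 37.7 in wild type, groups that overlapped (limma adjusted p = 0.767, with a 95% interval of the log2 fold change from -0.47 to 0.80). The 60-base coding stretch where the copies differ most is shown because reads over it can be told apart. It lies in exon 21 of 41 of C4b (chr17:34735430-34735489, minus strand, GRCm38), and capitals mark its 13 differing bases.
C4b: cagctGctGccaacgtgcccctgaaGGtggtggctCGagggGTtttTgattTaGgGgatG
C4a: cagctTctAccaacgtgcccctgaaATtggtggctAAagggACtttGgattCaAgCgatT

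C3, on which all activation routes converge (chromosome 17, 57203967 to 57228136), had 121, 159.7 and 209 normalized reads in the KO libraries and 165, 174 and 165 in wild type. KO 1 was the lowest and KO 3 the highest of all 6, so that the groups overlapped. The group means were 163 ± 44.1 and 168 ± 5.38 (SD, n = 3 each), and the log2 fold change was -0.08 (limma adjusted p = 0.842, 95% interval -0.50 to 0.34). The interval does not show that C3 was level. The sign turned without KO 1 (log2 fold change 0.12) and with limma-voom (0.11), and no alternative called the gene.

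Both regulators that act on proteolysis rose. Serping1, the C1 inhibitor (chromosome 2, 84765360 to 84775444), had 2159, 1764 and 2064 normalized reads in the KO libraries and 1101, 969.7 and 1055 in wild type. All KO libraries stood above all wild-type libraries, and the rise was 1.92-fold (limma adjusted p = 7.28e-05, log2 fold change 0.93 with SE 0.10). The call held in all 16 alternatives, with adjusted p from 2.41e-15 to 9.48e-04. Cfi, factor I (chromosome 3, 129836727 to 129875332), had 153, 124 and 183 normalized reads against 99.2, 67.1 and 74.4, a rise of 1.91-fold (limma adjusted p = 0.0121, log2 fold change 0.93 with SE 0.21). KO 2 and wild type 1 came closest to each other without overlap. The Cfi call ended without KO 3, wild type 2 or wild type 3 (adjusted p = 0.0680, 0.0520 and 0.0554).

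Cd59a, the membrane inhibitor of the terminal pore (chromosome 2, 104095753 to 104115410), was the member that fell. It had 2483, 2298 and 2579 normalized reads in the KO libraries and 4291, 4448 and 3742 in wild type, 1.70-fold lower and without overlap (log2 fold change -0.76, SE 0.09, limma adjusted p = 1.29e-04). The call held in all 16 alternatives. Its copy Cd59b had 48.7 ± 2.37 against 36.9 ± 10.4 normalized reads (limma adjusted p = 0.322), and 3.87% of the 50-base stretches of Cd59a transcripts occur in Cd59b. Rod markers moved in the same direction as Cd59a, with log2 fold changes of -0.85 to -0.21. Markers of pigment epithelium, a tissue that adjoins the retina, were also lower, 7 of 10 with 3 not passing, from a summed level of 4566 to 7075 normalized reads in wild type to 1948 to 3169 in KO (Slc6a20a, Rgr, Rdh5 and Ttr with log2 fold changes of -2.26, -2.12, -1.34 and -1.76). The part of either in the level of Cd59a was not tested.

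Per kb of exonic length, Cd59a was the most abundant of the 9 genes in both groups, at 2297 ± 205 normalized reads per kb in wild type and 1355 ± 79.0 in KO (SD, n = 3 each). In wild type it was followed by C1qb (663 ± 41.7), C1qa (502 ± 37.7), Serping1 (448 ± 28.7), C1qc (290 ± 26.0), C4b (90.8 ± 5.25), Cfi (36.1 ± 7.59), C3 (32.7 ± 1.05) and C1s1 (10.9 ± 1.31). The libraries of C1qa and Serping1 overlapped there, as did those of Cfi and C3. In KO the order was C1qb (948 ± 45.1), Serping1 (858 ± 88.7), C1qa (711 ± 27.1), C4b (461 ± 48.2), C1qc (435 ± 41.8), Cfi (69.2 ± 13.2), C3 (31.7 ± 8.58) and C1s1 (19.4 ± 2.25). C1qb overlapped with Serping1 and C4b with C1qc. Each level is the mean per kb of all annotated exons (GENCODE M21), which understates a gene that uses only some of them.

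Beyond the 9 genes, 54 other complement genes were listed by role, of which 29 were tested, with 6 higher, 2 lower and 21 not passing. Across all tested genes 6.79% were called higher and 5.21% lower, shares that also stand beside the counts by role and by marker list. The number lower is near that share. Their median log2 fold change was 0.32. The number lower was 1 when KO 1, KO 3, wild type 2 or wild type 3 was left out, since Csmd1 then missed the threshold.

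Among recognition molecules and the proteases and substrates next to them, 2 of 9 tested rose and 7 did not pass. The riser besides C1ra was Crp, C-reactive protein, a pentraxin that can bind C1q, with 259.6, 319 and 298 normalized reads in KO against 9.41, 4.33 and 4.71 in wild type (limma adjusted p = 1.27e-07). Its 20 wild-type reads were below the filter, which it passed through the KO libraries. C2, which joins C4 in the classical convertase, had 51.1 ± 13.1 against 78.9 ± 19.8 normalized reads and did not pass (log2 fold change -0.62, limma adjusted p = 0.141). Ptx3, another pentraxin, and Masp2, a lectin-pathway protease, did not pass either, with log2 fold changes of 0.03 and -0.17. The mannose-binding lectins and ficolins, which start the lectin pathway, had at most 3.39 normalized reads in any library. Colec11, another recognition lectin of that pathway, had 23.1 ± 5.85 against 19.5 ± 10.4 and did not pass (limma adjusted p = 0.649).

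In the alternative pathway, Cfb, the protease factor B, had 292 ± 25.3 against 237 ± 51.3 normalized reads and did not pass (log2 fold change 0.32, limma adjusted p = 0.254, 0 of 2 tested genes called by limma, edgeR and DESeq2, and 0 at an unadjusted p under 0.05). Properdin, encoded by Cfp, had 264 ± 72.9 against 263 ± 19.9 (limma adjusted p = 0.938), and Cfd had 0 reads in all libraries, which allows up to 3 reads in each. Of 7 terminal pathway genes only C8g reached the filter, at 236 ± 66.4 against 241 ± 2.54 (limma adjusted p = 0.850). The other 6, among them Hc, which encodes C5, stayed below 10 normalized reads in every library.

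Of 11 tested regulators 2 rose and 2 fell. Clu, clusterin, rose 1.26-fold (75139 ± 6123 against 59535 ± 2714, limma adjusted p = 0.00821), and Cr1l, the rodent membrane regulator Crry, 1.44-fold (331 ± 15.5 against 229.8 ± 37.2, limma adjusted p = 0.0338). The Cr1l call ended in 5 of 16 alternatives, with adjusted p from 0.00608 to 0.131. Vtn, vitronectin, fell 1.37-fold (66111 ± 3068 against 90450 ± 3648, limma adjusted p = 3.27e-04), and Csmd1, a transmembrane complement inhibitor of neurons, 1.64-fold (87.8 ± 17.5 against 144 ± 9.75, limma adjusted p = 0.0279, range over 16 alternatives 0.00807 to 0.112). Susd4 and Csmd2 did not pass (log2 fold changes -0.03 and 0.47).

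Among receptors, 2 of 6 tested rose and 4 did not pass. They were both chains of complement receptor 3 of microglia and other myeloid cells, Itgam (2.09-fold, 105 ± 17.5 against 50.1 ± 12.1, limma adjusted p = 0.0101) and Itgb2 (2.15-fold, 106 ± 19.0 against 49.3 ± 10.9, limma adjusted p = 0.00864). The Itgb2 call ended without KO 3 (adjusted p = 0.0526). The C3a receptor C3ar1 (39.4 ± 10.8 against 28.5 ± 17.8, limma adjusted p = 0.373) did not pass. C1qbp, a mitochondrial protein that binds C1q globular heads, had 2915 ± 112 against 3416 ± 198 and did not pass (limma adjusted p = 0.0856), and Cd93 had a log2 fold change of 0.17.

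**Figure D3:**
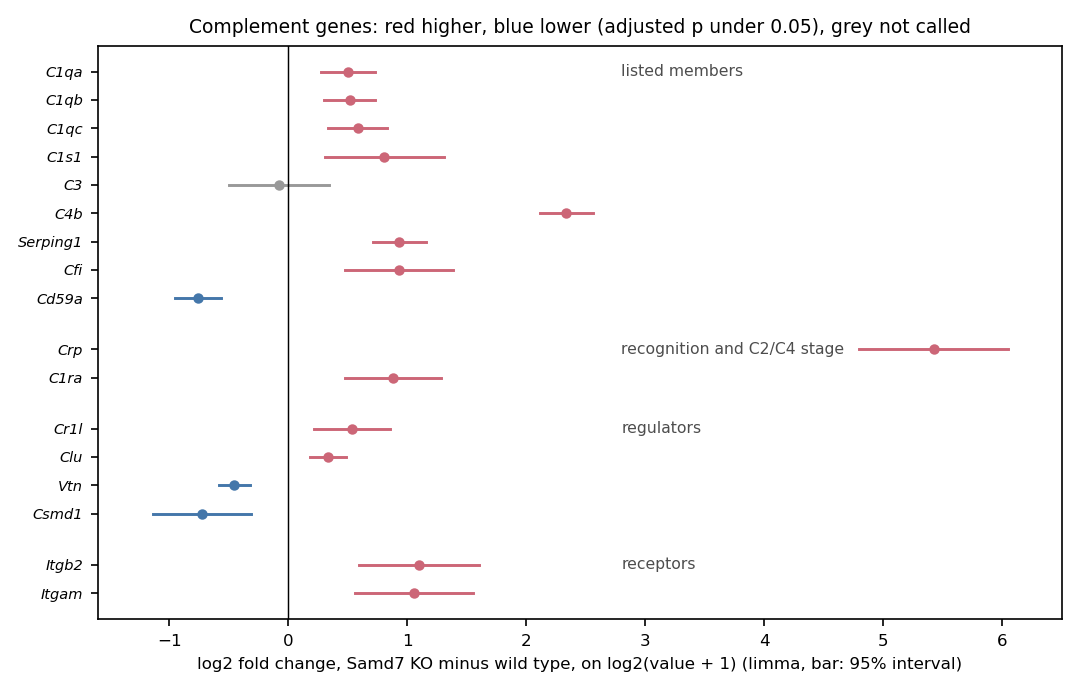
Log2 fold change of Samd7 KO minus wild type (horizontal axis, limma, bars: 95% interval) for the 9 complement genes and the 8 complement genes of other roles that were called. Crp at 5.42 and C4b at 2.34 lie farthest right, Cd59a at -0.76 farthest left.

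Genes linked to reactive glia, cells known to make C4b and Serping1 in stressed nervous tissue, were listed too. Of 14, all tested, 11 rose, 1 fell (Lcn2, log2 fold change -0.89) and 2 did not pass, with a median log2 fold change of 1.21 and a summed level of 30756 to 36965 normalized reads in KO against 15066 to 16657 in wild type. Fgf2 (6.94-fold), Stat3 (2.14-fold), Socs3 (3.40-fold) and Gfap (3.72-fold) had the smallest adjusted p. The list also holds secreted stress factors such as Fgf2, which cells other than glia can make, and their source was not tested. Müller glia markers did not move in 1 direction, with 3 of 11 higher, 1 lower and summed levels that overlapped (237174 to 247607 in KO, 239997 to 269386 in wild type). Crym rose 1.76-fold, Slc1a3 1.26-fold and Sox9 1.23-fold, and Glul had a log2 fold change of -0.53. Of 5 astrocyte markers limma called 0 (2 at an unadjusted p under 0.05), edgeR 0 and DESeq2 1, and Aldh1l1 had the smallest limma adjusted p (0.0607).

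Vessel and blood genes were read as well, because vessels make some complement. The reads are of RNA and do not measure complement protein carried in plasma. Endothelial and pericyte markers had 1 of 11 higher, Kdr (1.79-fold), and 1 lower, Vtn, while Rgs5 and Pdgfrb did not pass (log2 fold changes 0.28 and 0.37). Of these 11 markers edgeR called 2 and DESeq2 4, and 7 had an unadjusted limma p under 0.05. In wild type Vtn had 90450 normalized reads, far above Flt1, the next of the list, at 2104. Its fall is therefore not read as a vessel result, and which cells made it was not tested. Red blood cell markers rose in 5 of 5, from a summed 1467 to 2232 normalized reads in wild type to 5661 to 8293 in KO (Hbb-bs, Hba-a1, Hbb-bt and Hba-a2 by 3.85- to 4.43-fold, genes that are near-identical in pairs). Of 11 liver plasma protein genes 6 were tested, and 1 rose (Fgg, from 6.42 ± 2.47 to 19.9 ± 2.75), which like Crp passed the filter only through the KO libraries. The summed levels of the 11 overlapped at 151 to 178 normalized reads in KO and 166 to 199 in wild type, with albumin at 1.39 ± 0.599 and 0.960 ± 0.114. Apoa2, Apoh and Hp did not pass (log2 fold changes -0.42, -0.72 and 0.72). The part of glia, vessels or blood in the complement values was not tested.

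The genes whose profile over the 6 libraries came closest to each complement gene were found among 12684 tested genes with a mean of at least 100 normalized reads. Predicted gene models (Gm numbers and symbols ending in Rik) were left out, so that places hold among named genes. Distance was the root mean square difference of log2 values centred on the wild-type mean. C1qa and C1qb were near neighbours: C1qa was the closest gene to C1qb (0.0404), and for C1qa only Ahr (0.0337) was closer than C1qb. Aga stood next for both (0.0538 and 0.0491), and Slc35c2 (0.0526) was the third for C1qb. C1qc was closest to Atp8b2 (0.0577), Igsf9 (0.0617) and Mb21d2 (0.0643), with C1qb in place 19 (0.0852). For C4b the closest were St3gal3 (0.0775), Harbi1 (0.0830) and Nr6a1 (0.110), which rose 4.84-, 5.12- and 4.71-fold. Serping1 lay closest to Clrn1, Kdelr3 and Inppl1 (0.0568 to 0.0701), C1s1 to Kdelr3, Pdpn and Zfp608 (0.0641 to 0.0915), Cfi to S1pr3, Itpr3 and Sema5b (0.0902 to 0.138), Cd59a to Alyref2, Zfp395 and Reep6 (0.0830 to 0.0905) and C3 to Sugct, Tshr and Myo16 (0.107 to 0.115). These are distances in 6 libraries and are given as a description.

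**Figure D4:**
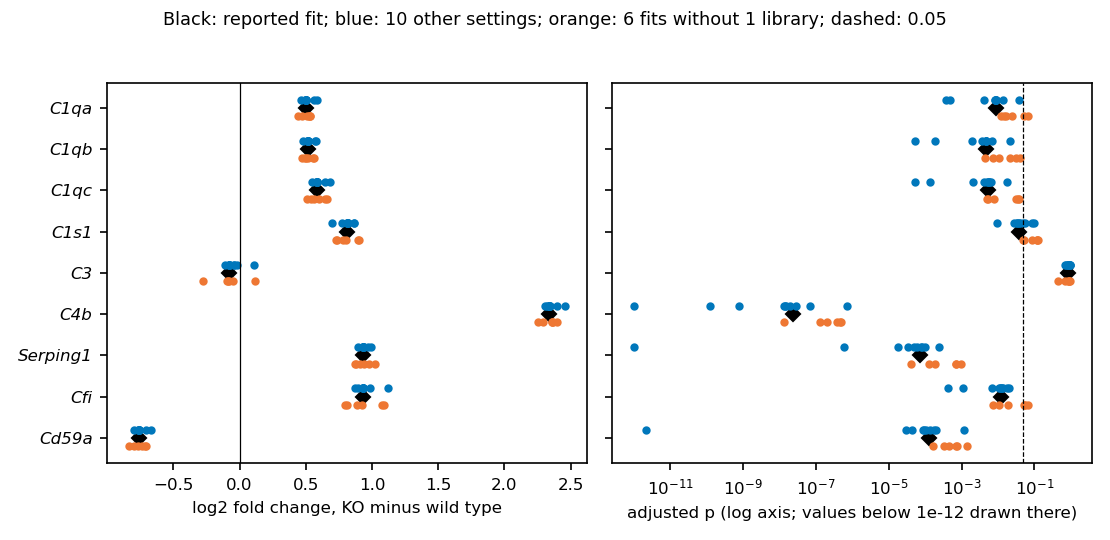
Log2 fold change (left) and adjusted p on a log axis (right, dashed line at 0.05) of the 9 complement genes in the reported fit (black), 10 other settings (blue) and 6 fits without a single library (orange). C4b, Serping1, Cd59a, C1qb and C1qc keep their side of the threshold in all 16, while C1s1 crosses it in 8, Cfi in 3 and C1qa in 2.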

How the data were processed

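RNA of 6 retinas, 3 in each group, had been made into cDNA with a SMARTer Ultra Low kit and sequenced, per the labels' protocols. The submitters' processing notes name DRAGEN, cutadapt 3.0, STAR 2.7.3a, HTSeq 0.12.4, SAMtools 1.9, DESeq2 and the builds GRCm38 and mm10, without saying what each did. The strand setting was not stated there. The signal deposited by the authors is gene read counts divided by a size factor per library: 100% of 166478 values above 0 were whole reads within 0.01 reads. The authors also deposited group means of this signal, log2 fold changes with their errors, Wald scores and p-values from DESeq2, of which only what is credited to their table was used.

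From the signal, log2(value + 1) was fitted with limma 3.58.1 (trend, R 4.3.3) for 20277 genes with at least 10 normalized reads in at least 3 libraries, with Benjamini-Hochberg adjustment over all of them. Log2 fold changes are on this log2(value + 1) scale, which understates the change of low genes, and folds are ratios of group means. On the recovered reads edgeR 4.0.16 with TMM called 2494 genes and DESeq2 1.42.0 called 2883. The other alternatives were other pseudocounts, filters and scalings, limma-voom with quality weights, a replicate term, and leaving out each library. Replicates of a group differed by more than counting noise (chi-square divided by its degrees of freedom, 7.20 to 33.5).

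The 9 genes and all lists were chosen with earlier results of these data known. Named besides the 9 are called genes of each other complement role, up to 3 uncalled ones with the highest mean, up to 4 of each marker list with the smallest adjusted p, close copies and nearest profiles, apart from genes that are not reported here. Lcn2, albumin, Cfd, Hc, Cd163, Colec11, the lectins and ficolins and the monocyte genes were named after their values were seen. Promoter sequences are from RefSeq (GRCm38.p6), as are the start and end positions of genes. Transcripts, exonic lengths, exon overlaps and the position of the C4b coding stretch are from GENCODE M21.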

Additional observations from a re-analysis of the deposited data

How the results depend on the processing

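Of 144 refits of the 9 complement genes under 16 alternatives, 131 kept their direction or stayed uncalled as reported, and 13 lost a call: 8 of C1s1, 3 of Cfi and 2 of C1qa. Of 455 refits of the other complement genes, 436 kept their side of the threshold, 10 lost a call and 9 gained one. The number of genes called was 4650 with limma-voom and ranged from 1313 to 3247 when 1 library was left out (1313 with wild type 3 omitted, 1470 with wild type 2 and 1497 with KO 3), where the test has fewer samples. Limma-voom called 4 other complement genes lower, and the cause was not tested. Leaving out 1 library gave 4 to 7 of the 9 genes higher and 1 to 1 lower, 4 to 7 other complement genes higher and 1 to 2 lower, a log2 difference of -0.0721 to 5.15e-04 for C1q against microglia markers (the upper value without KO 2) and of 1.77 to 1.83 for C4b against C1q. With means of logs the former was -0.21, since each marker then weighs the same, among them Ptprc, which passed the filter only through the KO libraries.

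Libraries with the same replicate number did not deviate together (correlations -0.18, -0.13 and -0.01). So few correlations of deviations from small group means cannot exclude a pairing by number. With the replicate block 1624 genes were called, 6 of the 9 genes higher and 1 lower, and 5 other complement genes higher and 2 lower, and the log2 differences stayed at -0.04 for C1q against microglia markers and 1.81 for C4b against C1q. Low read numbers limit C1s1, C4a and the other genes under about 100 normalized reads.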
